A study of Mus musculus with 12 samples.

Results

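Renal vesicles, the first epithelial structures of the forming nephron, were compared with the collecting duct, the branching epithelium that grows from the ureteric bud and drains the nephrons. The comparison rests on the 6 arrays that the labels title renal vesicle (replicates 2, 3 and 4) and collecting duct (replicates 1, 2 and 3), of 12 arrays in the series. All structures were microdissected from kidneys of wild-type Swiss Webster mouse embryos at E14.5 (Theiler stage 22), with the sex recorded as unknown, and the structures were recognised by their morphology. Each renal vesicle array held RNA of a pool of 20 vesicles, whereas each collecting duct array held 1 unpooled sample. The pool size therefore changes with the structure, and the contributions of pooling and structure cannot be told apart. RNA went through 2 rounds of T7 amplification before hybridization to Affymetrix MG_U74Av2 arrays. Another 3 arrays of pooled S-shaped bodies, the next nephron stage, entered the same fit so that the groups shared 1 estimate of the spread.

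The metanephric kidney has epithelia of separate origin. The collecting duct system is a branching tube from its start, whereas nephrons arise when mesenchymal progenitors around the ureteric tips aggregate and turn into epithelium, first as the renal vesicle. Wnt signals from the ureteric bud and from the aggregate itself drive that step, and Notch signalling then patterns the vesicle. The question of the comparison is which genes separate the newly formed nephron epithelium from the older duct epithelium beside it.

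The deposited table gave an intensity for 12422 probe sets besides 66 controls, and 9316 passed the filter on dim probe sets. Levels are given as log2 of the normalized intensity plus a pseudocount of 7.22, on which a value of 2.85 means an intensity of 0, and fold changes of dim genes are understated. The limma fit called 2208 of 9316 probe sets at an adjusted p under 0.05 (23.7%), 1133 higher and 1075 lower in renal vesicles. Over the 6746 genes tested, each read from its brightest probe set, 886 were higher (13.1%) and 829 lower (12.3%) in renal vesicles. These shares are the reference for the counts of list members below. The called differences were often large: 175 genes were at least 4-fold higher and 171 at least 4-fold lower, and 40 and 31 passed 16-fold. In 2779 genes (41.2%) the renal vesicle and collecting duct arrays did not overlap. A further measure of the contrast is detection: 179 genes exceeded background on every renal vesicle array and no collecting duct array, and 76 showed the opposite.

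**Figure D1:**
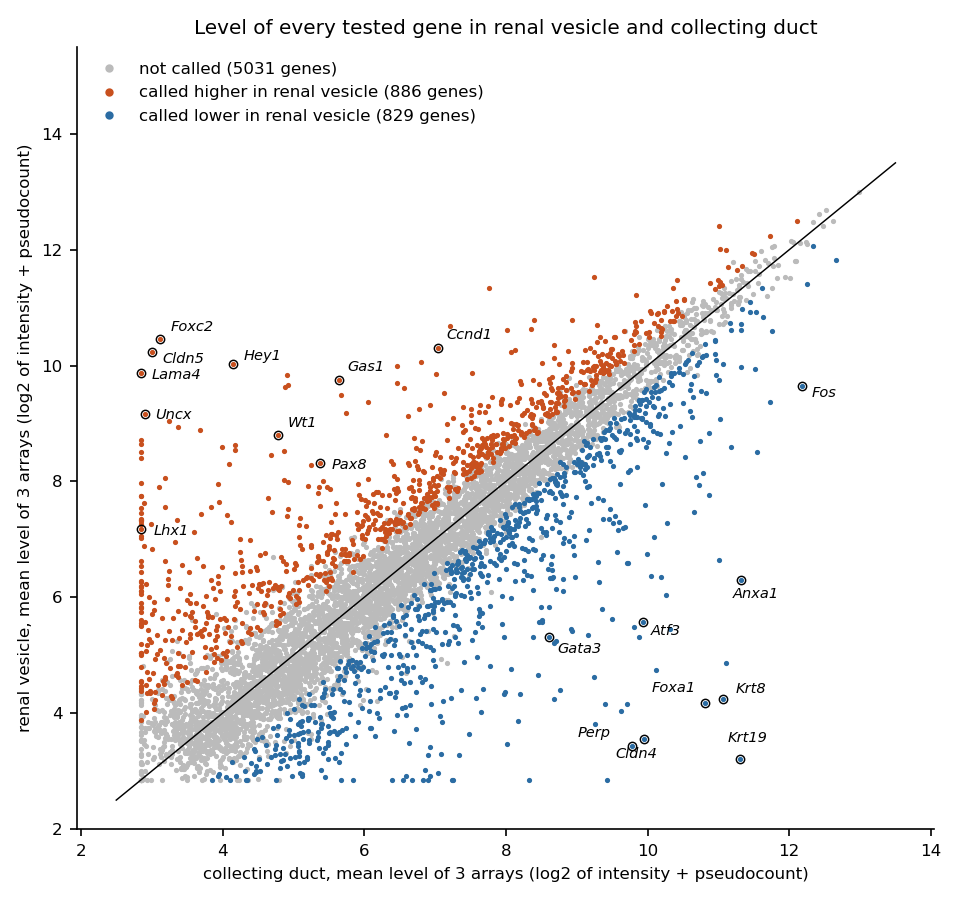
Mean level of each of the 6746 tested genes in collecting duct (horizontal axis) and renal vesicle (vertical axis), both as log2 of intensity plus pseudocount over 3 arrays; orange points were called higher and blue points lower in renal vesicle, grey points were not called, and the line marks equal levels. The called genes lie on both sides of the line in similar numbers, 886 and 829, and the column of points at the left edge holds genes with an intensity of 0 on the collecting duct arrays.

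Several properties of the arrays bear on every value below. The deposited arrays differed in scale, with mean intensities of 108 to 131 in renal vesicles and 273 to 363 in collecting duct, and they were quantile normalized. On the deposited scale the median difference of all genes was -1.41, against -0.02 after normalization, and 3.21% of the called genes were higher in renal vesicles, against 51.7%. All differences are therefore relative to the typical gene, and those smaller than the shift, among them many of the mitosis, splicing and ribosome biogenesis genes below, have the opposite sign on the deposited scale. Within groups the arrays correlated at 0.94 to 0.95 in renal vesicles and 0.96 to 0.97 in collecting duct across probe sets, which are not independent, and between groups at 0.85 to 0.88. Renal vesicle replicate 3 stood nearest to the collecting duct: among genes called lower it was the highest vesicle array in 412, against 203 and 195 for replicates 2 and 4. Without it 1757 genes were called, 1483 of them among the genes called with it and in the same direction. The labels do not state which samples came from separate embryos, so p-values reflect no more than the spread among these arrays, which may be technical. Where a gene read 2.85 on all 3 arrays of a group, that group showed no spread. Standard errors and p-values of such genes can be too small. In such bulk RNA, fewer cells of a type and less RNA per cell cannot be told apart.

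The 4 markers chosen went with the labels, whereas the ureteric genes Calb1 and Wnt11, given below, did not. Wt1, a zinc finger regulator of nephron progenitors and podocytes, was at 7.94, 9.98 and 8.50 in renal vesicle replicates 2, 3 and 4 and at 4.71, 4.93 and 4.69 in collecting duct. Pax8, a paired box factor of the induced nephron, was at 8.30, 8.44 and 8.23 against 5.22, 5.29 and 5.60. Lhx1, a LIM homeobox factor, was at 7.25, 6.84 and 7.47 against 2.85 on each collecting duct array. Krt19, a keratin of simple duct epithelia, ran the other way, at 2.85, 3.93 and 2.85 in renal vesicles and 11.51, 11.16 and 11.27 in collecting duct. These 4 markers were among the 41.2% of genes without overlap, and a second Krt19 probe set also differed, by -7.05 (adjusted p = 2.67e-07). Of 12 nephron progenitor genes tested 8 were higher and 0 lower, with a median log2 difference of 2.67 against -0.02 for all genes, and for early nephron genes the counts were 10 and 0 of 13 (median 2.95). With genes not above background at their bounds these medians were 1.82 and 1.57. For ureteric bud and duct genes 14 of 20 were lower and 1 was higher (median -2.24), and their intensities summed to 701, 1897 and 709 (vesicle replicates 2, 3 and 4) against 13450 to 14709 for the ducts. The higher one was Wnt11, a ureteric tip signal, at 4.96, 7.10 and 4.49 in renal vesicles against 2.85 throughout collecting duct (at least 1.76-fold). It was highest in replicate 3 and above background on 2 of 3 vesicle arrays. Calb1, which encodes calbindin and marks the ureteric bud, was at 2.85 on all 3 collecting duct arrays and read 2.85, 8.72 and 3.47 in renal vesicles, so that it was high in replicate 3 alone and read 0 in the structure it marks (adjusted p = 0.300). Ret and Aqp2 fell under the filter on dim probe sets.

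Transcription factors, matrix proteins and a claudin stood farthest above the collecting duct, and most were not above background there. Of the 15 leading genes higher in renal vesicles 13 were above background on 0 of 3 collecting duct arrays, so their differences are bounds. Foxc2, a forkhead factor of podocyte precursors and of vessels, was at 10.08, 10.92 and 10.38 in renal vesicles and 2.93, 3.57 and 2.85 in collecting duct. This was at least 54.0-fold (log2 difference 7.34 ± 0.24 SE, adjusted p = 2.72e-08), and its second probe set gave 7.02 (adjusted p = 1.28e-07). Lama4, a laminin chain of basement membranes, was at 9.83, 9.92 and 9.87 against 2.85 throughout, at least 36.1-fold. Its values were almost identical between vesicle pools, although a second, dimmer Lama4 probe set was not called and pointed the other way (-0.53, adjusted p = 0.468). Uncx, a homeobox factor of the progenitor field, was at 9.51, 9.16 and 8.81 against 2.85, 2.85 and 3.02, at least 21.9-fold. Nr2f1, an orphan nuclear receptor, was at 8.93, 8.59 and 8.62 against 2.85 throughout, at least 16.1-fold (adjusted p = 3.64e-08).

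Hey1, a transcriptional repressor induced by Notch, was at 9.73, 10.33 and 10.03 in renal vesicles and 4.09, 3.43 and 4.93 in collecting duct (log2 difference 5.88 ± 0.32 SE, adjusted p = 4.19e-07). Less familiar members of the leading group were Slc32a1, the vesicular transporter for GABA and glycine, at least 8.26-fold, Chst2, a sulphotransferase, at least 9.66-fold, Lsp1, an actin-binding protein known from leukocytes, at least 13.1-fold, and Prnp, the prion protein (log2 difference 4.92 ± 0.36 SE, adjusted p = 3.16e-06). Second probe sets of Chst2 and Lsp1 also passed, at 4.39 and 4.03. Slc32a1 was at 8.59, 7.29 and 7.37 in the vesicle pools and at 2.85 on every collecting duct array. In pooled S-shaped bodies Slc32a1 was again at 2.85 on each of 3 arrays, at least 8.48-fold below renal vesicles (limma adjusted p = 5.37e-06). Uncx (-4.98) and Chst2 (at least 9.91-fold) were also lower in the S-shaped bodies than in the vesicles, whereas Foxc2 averaged 10.78 and Cldn5 10.41 there and neither passed the test (adjusted p = 0.335 and 0.724). The 2 comparisons share the renal vesicle arrays.

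**Figure D2:**
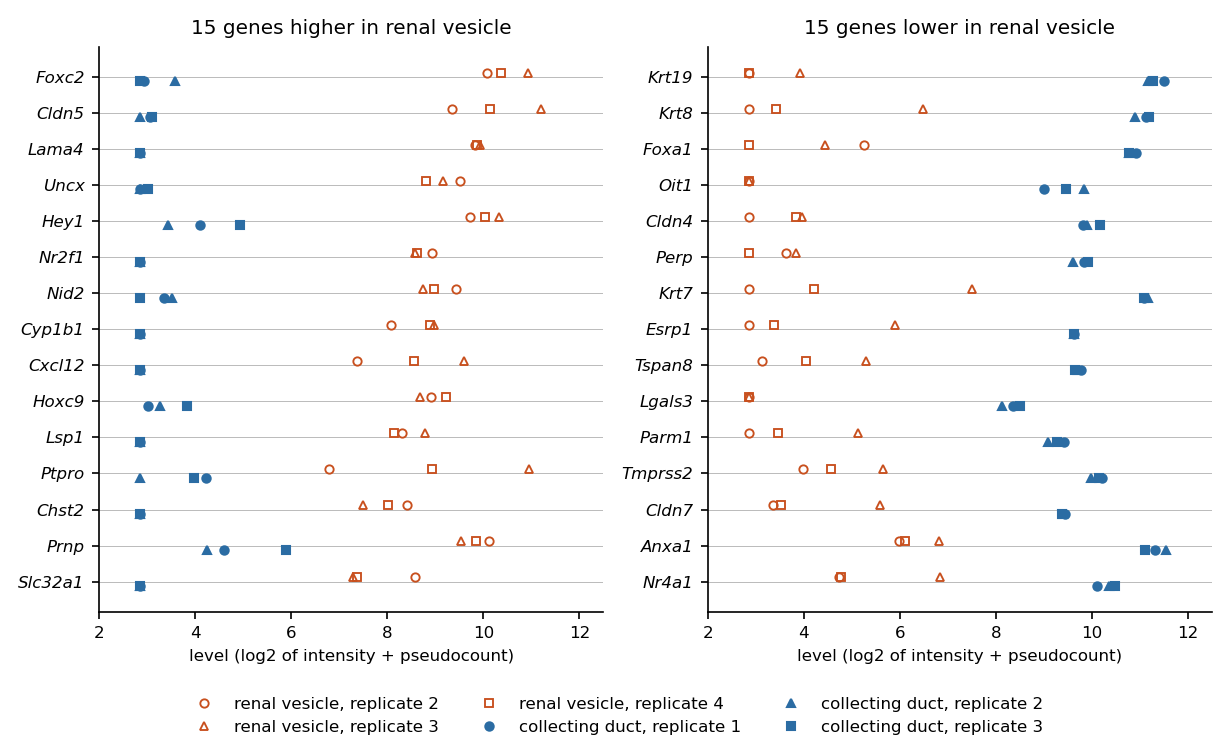
Level on each array of the 15 genes with the largest difference in each direction, as log2 of intensity plus pseudocount; open orange symbols are the 3 renal vesicle pools and filled blue symbols the 3 collecting duct samples, with the marker shape giving the replicate. In the right panel renal vesicle replicate 3 (open triangles) is the highest vesicle array in 12 of 15 genes, and the groups do not overlap in any gene, which the choice of these genes required.

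The leading genes of the collecting duct were mostly epithelial. Keratins led: Krt8 was at 11.13, 10.90 and 11.18 in collecting duct and 2.85, 6.47 and 3.41 in renal vesicles, and Krt7 at 11.09, 11.16 and 11.07 against 2.85, 7.51 and 4.22. The vesicle values of both spread widely, with replicate 3 the highest, yet stayed below every collecting duct array. Foxa1, a forkhead pioneer factor of endoderm and duct epithelia, was at 10.91, 10.78 and 10.77 against 5.25, 4.44 and 2.85 (log2 difference -6.64 ± 0.49 SE, adjusted p = 3.37e-06). Esrp1, a splicing regulator that sets the epithelial isoforms of many genes, was at 9.63, 9.62 and 9.62 in collecting duct and 2.85, 5.89 and 3.38 in renal vesicles (-5.58 ± 0.62 SE, adjusted p = 7.41e-05). Trp63, a p53 family factor of basal epithelia, was also far lower in renal vesicles (-4.61 ± 0.28 SE, adjusted p = 1.13e-06). Oit1, a secreted protein known from intestine, and Lgals3, galectin-3, read 2.85 on all 3 vesicle arrays and were lower by at least 29.4-fold and 13.7-fold. The group also held membrane proteins of secretory epithelia: the tetraspanin Tspan8 (-5.56), the androgen-regulated mucin-like protein Parm1 (-5.44) and the serine protease Tmprss2 (-5.38), each with an adjusted p of at most 1.22e-05. Cldn4, Cldn7, Perp, Anxa1 and the nuclear receptor Nr4a1, all given below, belonged to it too.

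Hox genes, which give the body and limb axes and the kidney territory their positional identity, had 22 members tested of 31 on the array, with 9 higher, 3 lower and 10 that did not pass (median 0.56, or 0.41 with bounds). By cluster, 5 of 8 Hoxa, 3 of 4 Hoxc, 1 of 3 Hoxd and 0 of 7 Hoxb genes were higher, and 0, 0, 2 and 1 were lower. Hoxc9 was at 8.92, 8.69 and 9.22 in renal vesicles and 3.01, 3.26 and 3.83 in collecting duct, at least 18.9-fold. Hoxa11, one of the paralogs that the metanephric mesenchyme requires, was at 7.92, 8.16 and 8.12 against 3.05, 2.85 and 3.68, at least 10.3-fold, and Hoxa10 at 6.86, 7.72 and 7.43 against 2.85 throughout, at least 6.22-fold. Hoxc6 was higher by at least 7.25-fold and Hoxa5 by 3.06 ± 0.18 (SE, log2; adjusted p = 9.51e-07). Hoxb7, whose promoter is widely used to mark the ureteric bud, was at 7.24, 7.29 and 7.06 in renal vesicles and 8.47, 8.55 and 8.48 in collecting duct (-1.30 ± 0.17 SE, adjusted p = 2.91e-04). Hoxd8 was lower in renal vesicles too, by both of its probe sets (-1.77 and -1.98). The 4 Hox genes that differed most were above background on 0 of 3 collecting duct arrays, whereas Hoxb7 and Hoxd8 were above background on all 6 arrays. On the deposited scale 7 Hox genes were called higher and 11 lower.

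**Figure D3:**
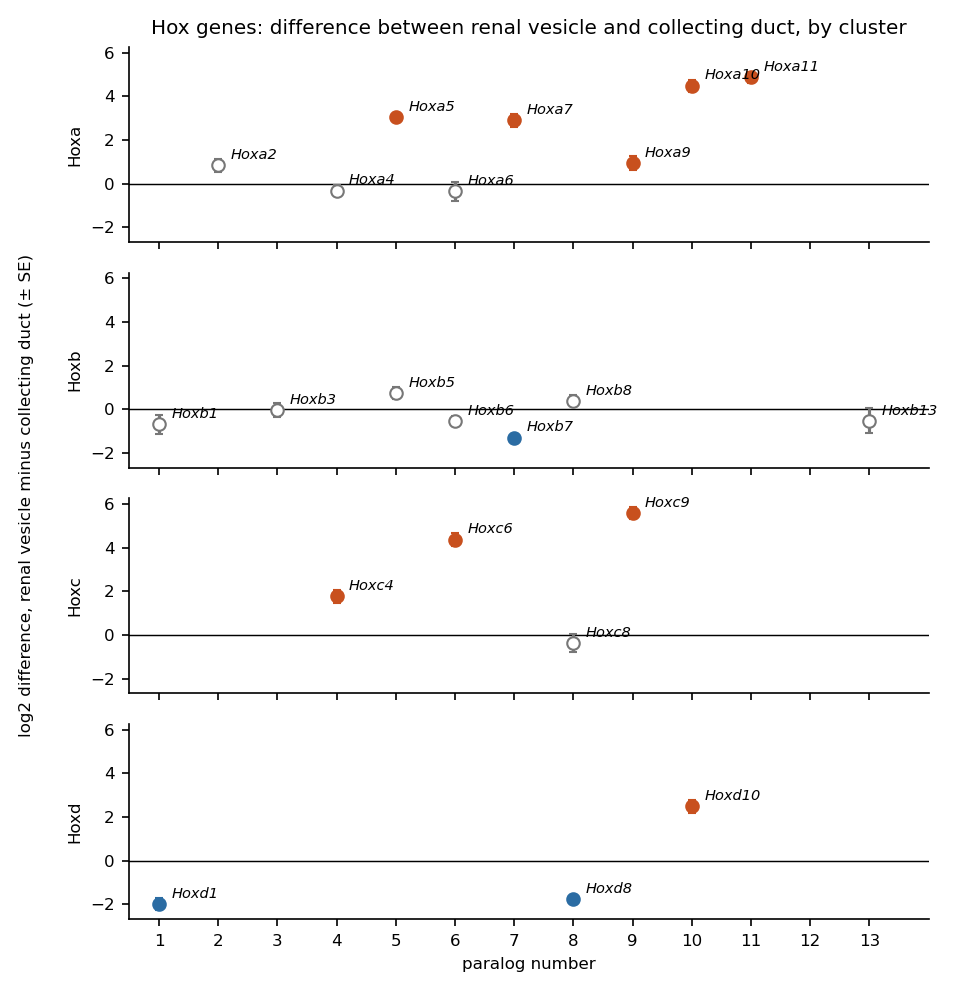
Log2 difference (renal vesicle minus collecting duct, ± SE from the fit) of the 22 tested Hox genes, in 1 panel per cluster with the paralog number on the horizontal axis; orange points were called higher, blue points lower, open points did not pass. The Hoxa and Hoxc panels hold called points between 0.94 and 5.57 and none below 0, whereas the only called Hoxb gene, Hoxb7, lies at -1.30.

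Cofactors of the Hox proteins went with the vesicles: of 5 Meis and Pbx genes 3 were higher and 0 lower. Meis1 was at 6.07, 6.61 and 6.01 against 2.85, 3.04 and 2.85 (at least 2.88-fold), Meis2 was at least 2.02-fold higher, and Pbx3 was higher by 2.47 ± 0.16 (SE, log2; adjusted p = 1.69e-06). Of 13 forkhead genes 5 were higher and 4 lower (median 0.05), against 13.1% and 12.3% over all genes. When renal vesicle replicate 4 was left out, 3 were called higher. Foxc2, Foxd1, a factor of the cortical stroma (at least 3.53-fold, adjusted p = 0.0138), and Foxn2 (1.66) stood on the vesicle side, and Foxa1, Foxq1 (at least 4.37-fold) and Foxj1, a factor of motile cilia (-2.08, lost in 5 of 6 fits without 1 array, adjusted p up to 0.119), on the duct side.

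Gata, ETS and Krueppel-like factors were more often lower than higher in renal vesicles. Gata genes had 3 of 5 lower and 0 higher, against 12.3% and 13.1% over all genes. Gata1, 1 of the 3, was dim and lower by at least 1.17-fold only. It exceeded background in 2 of 3 duct samples and in 0 of 3 vesicle pools. Gata3, which the nephric duct and ureteric bud require, was at 8.38, 8.57 and 8.88 in collecting duct and 5.15, 6.09 and 4.73 in renal vesicles (-3.29 ± 0.35 SE, adjusted p = 5.38e-05), and Gata2 was lower by a similar size (-2.66). Of 14 ETS factors 4 were lower and 0 higher, and the 4 were Elf1 (-3.26), Elf5 (-2.96), Elf3 (-1.83) and Ehf (at least 1.77-fold), the last 3 of which belong to the epithelium-specific branch of the family. Among 12 Krueppel-like factors 4 were lower and 1 higher. Klf5, a factor of proliferating epithelia, was at 7.71, 8.31 and 8.58 in collecting duct and between 3.93 and 5.0 in renal vesicles (-3.87 ± 0.40 SE, adjusted p = 4.97e-05), Klf6 and Klf4 were also lower (-4.21 and -2.63), and Klf13 was higher (1.5). Tbx3, a T-box repressor, was lower as well (-4.37 ± 0.32 SE, adjusted p = 3.66e-06).

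Cadherins went in both directions. Cdh1, the classical epithelial cadherin, did not pass the test. It was at 6.80, 6.70 and 6.50 in renal vesicles and 6.59, 6.86 and 6.84 in collecting duct, and the arrays overlapped (log2 difference -0.10 ± 0.19 SE, adjusted p = 0.759). Cdh2, N-cadherin, was at 8.24, 7.71 and 7.27 against 2.85 throughout, at least 8.22-fold, and Cdh4, R-cadherin, at 6.75, 5.75 and 6.30 against 2.85 throughout, at least 2.96-fold. Cdh16, the kidney-specific cadherin, was between 10.56 and 11.02 in collecting duct and 6.61, 8.99 and 7.70 in renal vesicles (-3.10 ± 0.52 SE, adjusted p = 1.45e-03). Of 15 cadherins and catenins 5 were higher and 4 lower, against 13.1% and 12.3% over all genes. Without renal vesicle replicate 4, or collecting duct replicate 1 or 3, 2 were lower.

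Tight junction and desmosome genes were mostly lower in vesicles. Of 14 claudins, occludin and other tight junction genes 9 were lower and 3 higher (median -1.06), and of 10 desmosome genes 7 were lower and 0 higher (median -1.32). Cldn4, a claudin that limits sodium passage in the duct, was at 9.82, 9.89 and 10.16 in collecting duct and 2.85, 3.96 and 3.84 in renal vesicles, at least 42.5-fold lower. Cldn7 (-5.24), Ocln, which encodes occludin (-2.52), and Crb3, an apical polarity protein (-1.89), were lower as well. Dsc2, a desmosomal cadherin, was lower by both of its probe sets (-4.33 and -1.85), Perp, a desmosome-associated tetraspan protein, by at least 37.7-fold, and Ppl, periplakin, by -2.07 on the log2 scale (adjusted p = 3.74e-06). The 3 tight junction genes higher in vesicles were Cldn5, Cldn1 (1.70) and Pard6a, which was not above background in collecting duct. Of 20 keratins 5 were lower and 0 higher, and besides Krt19, Krt8 and Krt7 these were Krt18 (-4.56) and Krt20 (at least 1.31-fold).

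Annexins and S100 proteins, calcium-dependent binders of membranes and partner proteins, had 9 of 17 members lower and 0 higher (median -0.95). Anxa1 was at 11.31, 11.53 and 11.11 in collecting duct and 5.98, 6.82 and 6.11 in renal vesicles (-5.01 ± 0.33 SE, adjusted p = 1.63e-06), with 2 further probe sets at -5.11 and -5.35. S100a6 (-4.44) and Anxa8 (-3.63) followed. Anxa1 in pooled S-shaped bodies averaged 10.46, or 4.15 ± 0.33 (SE, log2) above renal vesicles (adjusted p = 8.25e-06), so this gene was high in the later nephron stage as well.

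Basement membrane genes differed by chain. Among 20 laminins, nidogens and heparan sulphate proteoglycans 9 were higher and 3 lower in renal vesicles (median 0.65, or 0.39 with bounds). Lama1, the embryonic laminin alpha chain, was at 8.68, 7.61 and 7.56 against 4.83, 2.85 and 4.12 (4.02 ± 0.49 SE, adjusted p = 1.71e-04). Nid2, a nidogen that links laminin to collagen, was at least 20.2-fold higher and Nid1 at least 3.38-fold. Lama3 and Lamb3, chains of the laminin of stratified and duct epithelia, read 2.85 to 3.02 in renal vesicles and 6.54 to 7.12 in collecting duct, lower by at least 5.20-fold and 5.09-fold. Lama5, the chain of mature tubular basement membranes, was lower as well, by -1.89 and -3.55 for its 2 probe sets. Of 24 collagens 6 were higher and 1 lower: Col4a1 was at 11.63, 11.54 and 11.39 against 9.14, 9.33 and 9.25 (2.28 ± 0.10 SE, adjusted p = 1.19e-07), Col4a2 at 1.83 and the membrane collagen Col13a1 at least 7.56-fold higher, whereas Col18a1, the parent of endostatin, was lower (-1.504). Integrins, the receptors of these proteins, had 0 of 16 higher and 2 lower, against 13.1% and 12.3% over all genes. The 2 were Itga7 (-1.80) and Itgb7 (-1.02, lost in 3 of 6 fits without 1 array).

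Signalling genes are ordered here by pathway and role, and their counts stand against 13.1% higher and 12.3% lower over all genes. Among 27 Wnt genes 9 were higher and 4 lower (median 0.41), with 2 lower without collecting duct replicate 2. Of the ligands, Wnt4, the autocrine signal of the vesicle, was at 7.70, 7.35 and 7.82 against 6.18, 5.66 and 6.57 (1.49 ± 0.27 SE, adjusted p = 2.60e-03), and Wnt5b was at least 2.20-fold higher, whereas Wnt10a (-2.35) and Wnt1 (-1.72) were lower. Of the secreted modulators, Sfrp2 was at 9.36, 9.00 and 9.19 against 5.73, 5.72 and 5.77 (3.44 ± 0.17 SE, adjusted p = 2.63e-07), and Sfrp1 was at least 2.30-fold higher. Dkk3 was at 6.95, 6.66 and 6.88 in collecting duct and 2.85 throughout renal vesicles, at least 4.86-fold lower. Secreted Wnt modulators thus stood on both sides of the comparison.

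The Notch group had 4 of 13 higher and 1 lower (median 0.41). The ligand Dll1 was at 7.61, 7.16 and 7.28 against 2.85 throughout (at least 6.27-fold), and also at 2.85 on each of the 3 S-shaped body arrays. Of the receptors, Notch2 was at 10.65, 9.95 and 10.15 against 8.31, 8.85 and 9.46 (1.38 ± 0.28 SE, adjusted p = 5.03e-03), and Notch3 was lower (-1.09, adjusted p = 5.82e-03). Notch4 was called higher as well, at 5.24, 4.54 and 3.88 against 2.85 throughout. Its vesicle mean lay under the background level of the collecting duct arrays, so no fold is given. The Notch modifier Dtx1 was higher by 1.57.

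Of 7 hedgehog pathway and related genes 3 were higher and 0 lower. Gas1, a hedgehog co-receptor, was at 9.89, 9.74 and 9.65 in renal vesicles and 5.74, 5.70 and 5.50 in collecting duct, a difference of 4.11 ± 0.15 (SE, log2; adjusted p = 3.90e-08). Ptch1, the hedgehog receptor and a target of the pathway, was higher by 1.08 and the signal transducer Smo by 0.79. Ptch1 and Smo were lower in renal vesicles on the deposited scale, where all genes shifted by -1.41, and a second Ptch1 probe set gave -0.29 (adjusted p = 0.544).

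Of the growth factor genes, Gdnf, the mesenchymal ligand that draws out the ureteric bud, was at 8.75, 7.94 and 8.16 in renal vesicles and 5.14, 5.49 and 5.12 in collecting duct (3.03 ± 0.26 SE, adjusted p = 1.14e-05). Of 6 EGF family genes 3 were lower and 0 higher: the receptor Erbb3 was at 9.16, 9.31 and 9.63 in collecting duct and 5.81, 6.32 and 5.25 in renal vesicles (-3.57 ± 0.28 SE, adjusted p = 5.19e-06), Egfr was at least 1.59-fold lower (lost in 5 of 6 fits without 1 array, adjusted p up to 0.0825) and the feedback inhibitor Errfi1 lower by -2.65. For FGF signalling 1 of 13 was higher, the receptor Fgfr1 (1.28, and lower on the deposited scale), and 1 lower, the receptor Fgfr2 (-0.61, adjusted p = 0.0114), which the ureteric bud requires. BMP, TGF-beta and activin genes had 5 higher and 6 lower of 38, near the 13.1% and 12.3% over all genes. Bmp4 was at 10.22, 10.25 and 10.31 against 8.23, 8.14 and 8.04 (2.13 ± 0.24 SE, adjusted p = 9.08e-05), Ltbp1, which holds latent TGF-beta in the matrix, was higher by 4.75 and Gdf3 at least 5.89-fold, and the receptor Acvr2a (-1.60), Ltbp4 (-1.68) and the inhibitor Smad7 (-1.28) were lower. In the insulin-like growth factor group 5 of 14 were higher and 2 lower, led by the binding proteins Igfbp4 (2.54) and Igfbp3 (at least 1.75-fold). Of 2 dimmer Igfbp4 probe sets 1 was also called (2.65) and the other pointed the other way and was not called (-0.53, adjusted p = 0.314).

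Semaphorins, plexins, netrins, slits and their receptors, guidance molecules known from axons and vessels, had 5 of 23 higher and 3 lower. Without collecting duct replicate 2 the count lower was 1. Over all genes 13.1% were higher and 12.3% lower, and the list median was -0.04, against -0.02 for all genes. Nrp1, a receptor for semaphorins and VEGF, was at 8.04, 8.97 and 8.36 against 4.40, 5.22 and 4.43 (3.77 ± 0.27 SE, adjusted p = 3.09e-06), and the netrin receptor Unc5c at 9.02, 9.75 and 9.35 against 6.07, 6.44 and 5.64 (3.32 ± 0.23 SE, adjusted p = 2.24e-06). The ligand Sema3c was at 6.37, 5.62 and 5.04 in collecting duct and 2.85 throughout renal vesicles, at least 2.19-fold lower, and the receptor Plxna2 was lower by -2.44.

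Mitosis genes were higher in renal vesicles relative to the typical gene, by amounts that were small beside those above. Of 33 mitosis genes tested 19 were higher, 1 lower and 13 did not pass (median 0.59), against 13.1% higher and 12.3% lower of all genes. The called differences ran from 0.49 to 1.49. Kif11, the kinesin that pushes spindle poles apart, was at 8.87, 8.19 and 8.48 against 6.99, 6.76 and 7.31 (1.49 ± 0.21 SE, adjusted p = 5.17e-04). Cenpa, the centromeric histone, was at 9.39, 9.37 and 9.59 against 8.22, 8.32 and 8.01, and Cdc20, an activator of the anaphase-promoting complex, at 8.62, 8.62 and 8.66 against 7.38, 7.73 and 7.66. Ttk, a spindle checkpoint kinase, was at 9.40, 9.09 and 9.05 against 8.09, 8.34 and 8.34 (0.92 ± 0.15 SE, adjusted p = 1.00e-03). The single member that was lower, Ube2c, an ubiquitin conjugase of the same complex, differed by -0.67 (adjusted p = 0.0447) and was not called with any 1 of the 6 arrays left out, when 13 to 19 of the mitosis genes were called higher. On the deposited scale the mitosis median was -0.85, which is 0.56 above the median of all genes on that scale. Of 33 DNA replication genes 9 were higher and 1 lower (median 0.46), led by Rrm2, a subunit of ribonucleotide reductase, at 9.33, 9.13 and 9.28 against 7.56, 7.42 and 7.55 (1.74 ± 0.18 SE, adjusted p = 5.38e-05). The lower member was Mcm5, whose second probe set was called in the opposite direction (-0.62 and 1.99).

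The promoters of the mitosis genes that were higher share sequence elements which are known from genes expressed in late cell cycle. RefSeq windows (GRCm38.p6) from 250 bases before to 50 after the annotated start were available for 14 of the 19 genes and for 5441 of 6746 tested genes, and were searched on both strands for the cell cycle homology region element TTTGAA and the CCAAT box. TTTGAA was in 12 of 14 windows (85.7%), against 15.1% over all tested genes, and CCAAT in 13 of 14 (92.9%), against 42.8%. Over all 26 tested mitosis genes with a window, called or not, the shares were 76.9% and 88.5%. A gene with several windows counted once if any held the element, and among the 4326 genes with 1 window the shares were 12.6% and 39.3%. A TTTGAA match cannot lie within a CCAAT box, and a match describes the letters and not a bound site. The 4 windows below, each 5′ to 3′ on the strand of the gene from 200 bases before to 30 after the start, belong to the called mitosis genes with the largest differences that hold both elements in this stretch, and are shown to place the elements beside the start. Capitals mark the matches to either element on either strand, so that a CCAAT box on the opposite strand reads ATTGG. In the same way the other element then appears in the printed strand as TTCAAA. Kif11 lies at chr19:37376182-37376411 (plus strand), Cenpa at chr5:30666686-30666915 (plus), Cdc20 at chr4:118437314-118437543 (minus) and Ttk at chr9:83834489-83834718 (plus).
Kif11: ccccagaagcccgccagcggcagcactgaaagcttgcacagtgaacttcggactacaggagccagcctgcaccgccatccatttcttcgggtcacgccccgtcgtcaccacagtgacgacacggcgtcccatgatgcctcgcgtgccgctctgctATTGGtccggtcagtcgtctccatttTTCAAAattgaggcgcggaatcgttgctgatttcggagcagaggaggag
Cenpa: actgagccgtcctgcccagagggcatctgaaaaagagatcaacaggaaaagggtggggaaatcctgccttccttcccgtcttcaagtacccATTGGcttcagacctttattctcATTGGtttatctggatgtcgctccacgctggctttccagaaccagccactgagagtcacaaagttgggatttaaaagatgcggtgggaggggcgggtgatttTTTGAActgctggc
Cdc20: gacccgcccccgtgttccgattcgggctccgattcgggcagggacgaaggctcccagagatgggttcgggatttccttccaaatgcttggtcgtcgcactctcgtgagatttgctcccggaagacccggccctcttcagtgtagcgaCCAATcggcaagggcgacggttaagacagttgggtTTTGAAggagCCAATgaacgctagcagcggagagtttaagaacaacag
Ttk: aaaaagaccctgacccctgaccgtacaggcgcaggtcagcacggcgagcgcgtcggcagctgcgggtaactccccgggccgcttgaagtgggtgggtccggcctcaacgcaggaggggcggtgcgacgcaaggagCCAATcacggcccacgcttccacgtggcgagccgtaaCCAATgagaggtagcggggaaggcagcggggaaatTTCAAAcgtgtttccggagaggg
In Kif11 and Cdc20 the TTTGAA match begins 19 and 18 bases before the annotated start, and in Cenpa and Ttk 16 and 7 bases after it. Kif11 holds 1 CCAAT box and the other 3 windows hold 2 each.

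Regulators of the cycle itself differed in both directions, with 8 of 35 cyclins, CDKs, CDK inhibitors and antiproliferative Btg, Tob and Gadd45 genes higher and 9 lower. Without renal vesicle replicate 4, or collecting duct replicate 1 or 2, 5 were higher. Ccnd1, cyclin D1, was at 10.35, 10.49 and 10.09 in renal vesicles and 7.18, 6.69 and 7.28 in collecting duct (3.26 ± 0.29 SE, adjusted p = 1.38e-05), with a second probe set at 0.92 (adjusted p = 0.0240). Ccne1, cyclin E1, was at least 3.31-fold higher, a call that was lost in 5 of the 6 fits without 1 array (adjusted p up to 0.116). Among the lower members were the inhibitors Cdkn1a (-1.96, adjusted p = 0.0430, with overlapping arrays and lost in 5 of these 6 fits), Cdkn1b (-1.06, lost in 4 of these 6 fits) and the antiproliferative factor Btg2 (-2.78). Cyclins D1 and E1 and these inhibitors thus lay on opposite sides.

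Genes of ribosome assembly and splicing were more often higher than lower, relative to the typical gene. Of 26 genes of ribosome biogenesis and the nucleolus 9 were higher and 0 lower (median 0.50), led by Bop1, a factor of large subunit assembly (at least 1.57-fold). Without renal vesicle replicate 4 the count was 5 and without replicate 3 it was 15. Of 90 hnRNP and splicing factors 19 were higher and 2 lower (median 0.29). The cytosolic ribosomal proteins themselves had 4 of 31 higher and 1 lower, proteasome subunits 3 of 40 higher and 0 lower, and respiratory chain and ATP synthase subunits 2 of 71 higher and 3 lower, against 13.1% and 12.3% over all genes. With any 1 array left out, proteasome genes called higher ran from 1 to 2 and those of the respiratory chain from 2 to 5 higher and 1 to 6 lower. Of 20 genes of the unfolded protein response 5 were higher and 0 lower (median 0.28), a count that fell to between 1 and 4 with any 1 array left out. Among them was Pdia6, a disulphide isomerase, at 8.50, 8.95 and 8.46 against 7.39, 7.53 and 7.45 (1.18 ± 0.16 SE, adjusted p = 4.22e-04). Heat shock proteins and co-chaperones had 7 higher and 4 lower of 48, near the shares over all genes, with the stress-inducible Hspa1b among the lower (-2.26, adjusted p = 5.53e-03).

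Detoxifying enzymes were more often lower than higher in renal vesicles, and transporters and channels went both ways. Of 57 glutathione, aldehyde and cytochrome P450 enzymes 12 were lower and 2 higher (median -0.29). Gsta3, a glutathione transferase, was at 8.38, 8.79 and 8.21 in collecting duct and 4.36, 5.03 and 4.62 in renal vesicles (-3.79 ± 0.38 SE, adjusted p = 3.55e-05), while Cyp1b1, an oxidase of retinoids and steroids, was at 8.07, 8.98 and 8.89 in renal vesicles and 2.85 throughout collecting duct, at least 15.4-fold. Of 122 solute carriers 16 were higher and 14 lower (13.1% and 12.3% over all genes), and without collecting duct replicate 1 or 3 the count lower was 9 or 6. Slc32a1, the organic anion carrier Slco5a1 (at least 2.64-fold) and the folate transporter Slc46a1 (at least 2.47-fold) led the vesicle side, and the amino acid transporter Slc38a4 (-2.50) the duct side. Among 61 channels and ATPases 6 were higher and 7 lower: the T-type calcium channel Cacna1g was at 7.67, 8.26 and 7.79 against 2.99, 3.48 and 2.85 (at least 9.21-fold), the potassium channel Kcnk1 was lower by -2.70, and the ATPase modulator Fxyd3 by at least 5.79-fold. Glycolysis genes had 0 of 16 higher and 3 lower (5 without renal vesicle replicate 2), of which Pdk1, which turns pyruvate away from the mitochondria, was at 9.77, 9.60 and 9.75 in collecting duct and 6.06, 7.10 and 6.64 in renal vesicles (-3.11 ± 0.24 SE, adjusted p = 4.83e-06).

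**Figure D4:**
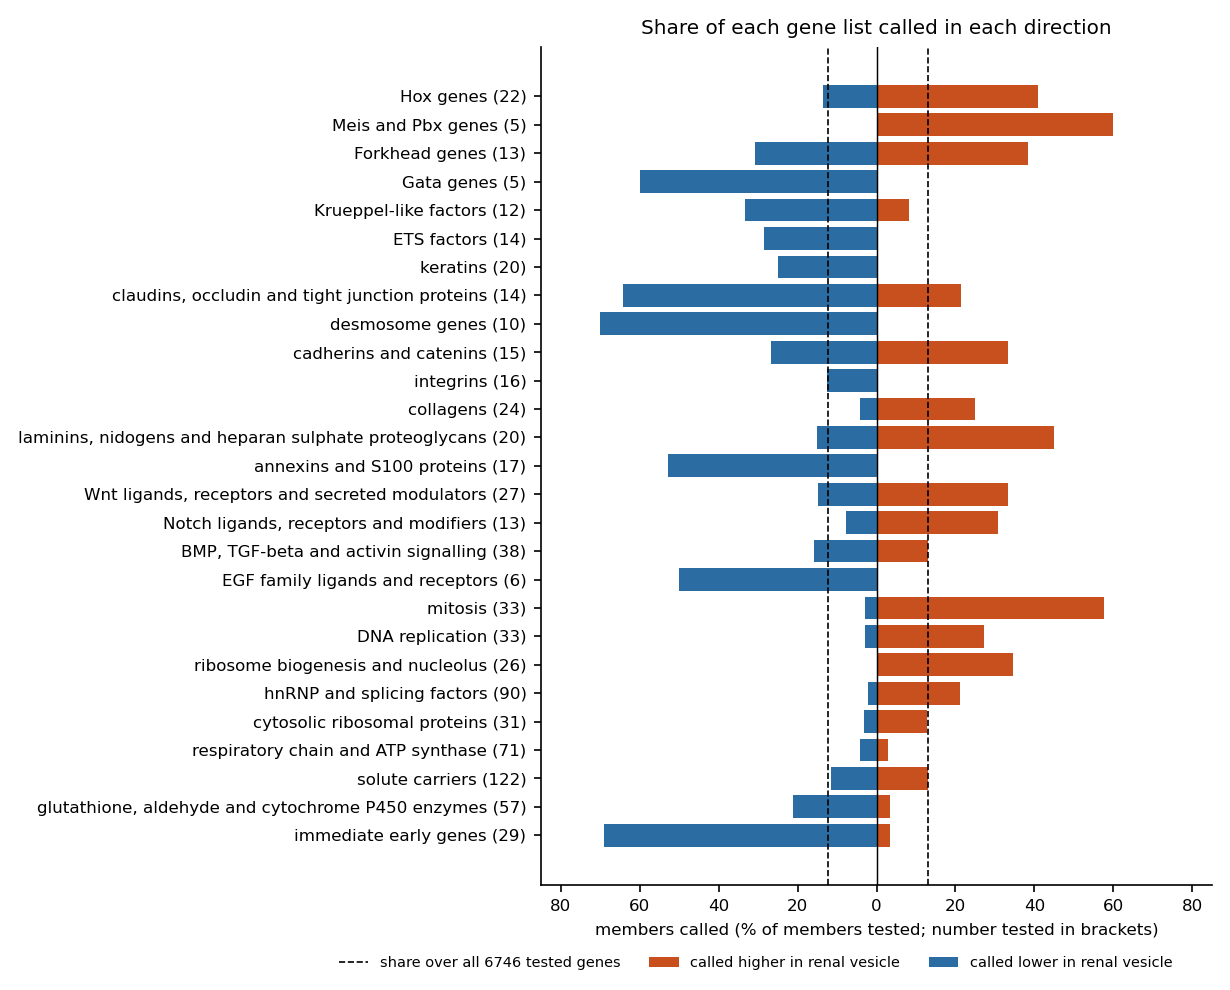
Share of tested members called higher (orange, right) and lower (blue, left) in renal vesicle for 27 gene lists, with the number tested in brackets; the dashed lines give the shares over all 6746 genes, 13.1% and 12.3%. Mitosis genes stand out to the right, with 19 of 33, and desmosome genes and immediate early genes to the left, with 7 of 10 and 20 of 29.

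Immediate early genes, which cells switch on within minutes of a stimulus, were far higher in collecting duct. Of 29 tested 20 were lower and 1 higher in renal vesicles (median -1.998), against 12.3% and 13.1% of all genes. Fos was at 12.09, 12.18 and 12.26 in collecting duct and 8.60, 10.88 and 9.46 in renal vesicles (-2.53 ± 0.41 SE, adjusted p = 1.24e-03). Atf3, a stress-induced repressor, was at 9.41, 10.27 and 10.10 against 5.15, 5.82 and 5.75, and the orphan nuclear receptor Nr4a1 at 10.10, 10.36 and 10.49 against 4.74, 6.84 and 4.78 (-4.86 ± 0.45 SE, adjusted p = 1.86e-05). Replicate 3 was the highest vesicle array in 16 of the 20. Its list median was 6.84, against 6.25 and 6.53 for replicates 2 and 4 and 8.11 to 8.70 for the ducts, and without it 19 genes were lower (median -2.35). The member that was higher in vesicles was Sgk1, a kinase induced by serum and glucocorticoids (1.20, adjusted p = 7.45e-03), which was lower on the deposited scale. Jun and Junb, partners of Fos in the AP-1 factor, were lower by -2.24 and -3.13, and Junb was at 6.13 in vesicle replicate 3 and 2.85 in the others.

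**Figure D5:**
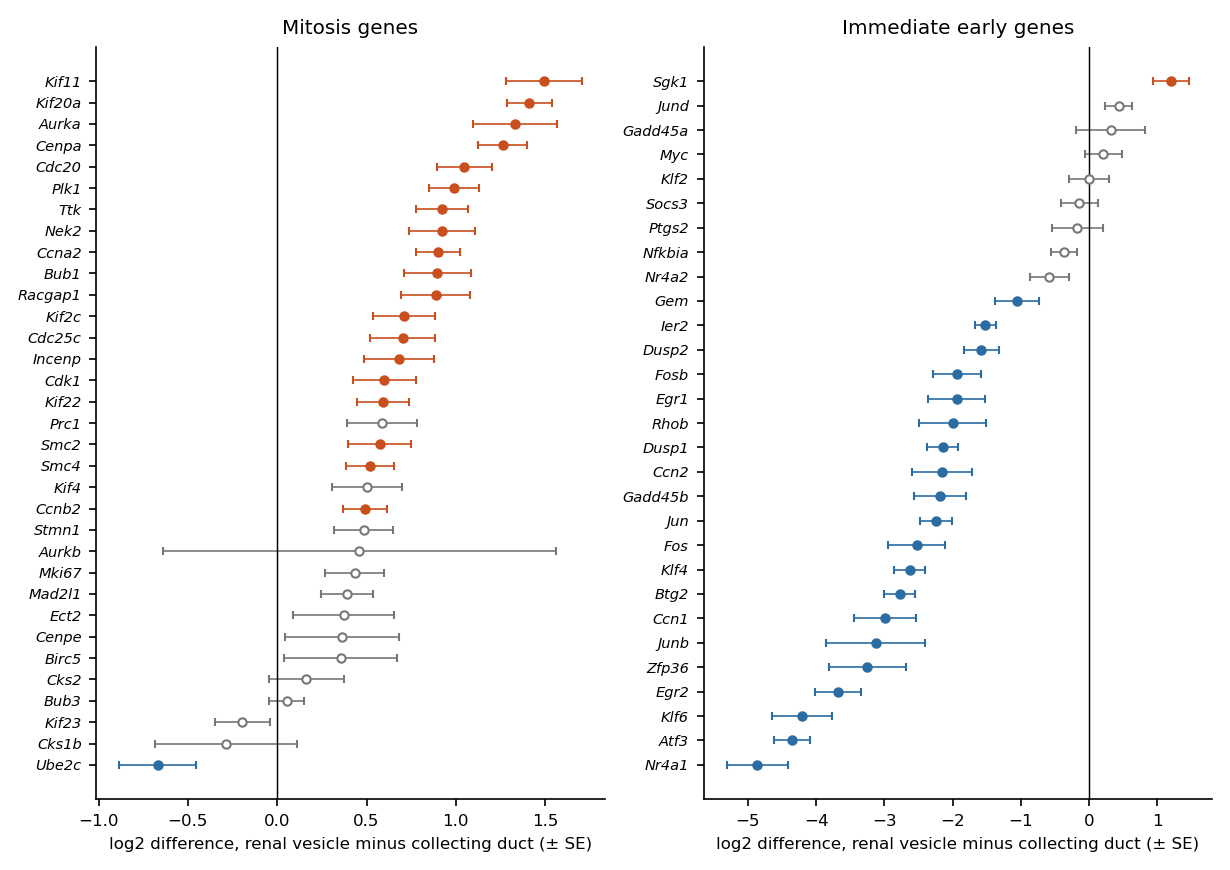
Log2 difference (renal vesicle minus collecting duct, ± SE from the fit) of 33 mitosis genes (left) and 29 immediate early genes (right), sorted by difference; orange points were called higher, blue points lower and open points did not pass. Called mitosis genes sit between 0.49 and 1.49 except Ube2c at -0.67, and the immediate early genes reach -4.86; the panels have different horizontal scales.

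Markers of some other cell types moved with the comparison. Over all genes 13.1% were higher and 12.3% lower. Of 16 endothelial genes 5 were higher and 1 lower (median 0.99), with 8 higher without collecting duct replicate 3, and 6 passed background on every renal vesicle array against 1 on every collecting duct array. Their summed intensity was 1598 to 3322 in renal vesicles and 120 to 208 in collecting duct. The sum was highest in vesicle replicate 3, in which Cldn5 was highest too. The median level of the list was instead highest in replicate 2, at 5.23, 4.78 and 4.45 in replicates 2, 3 and 4. Cldn5, the claudin of vessels, was at 9.35, 11.20 and 10.13 against 3.05, 2.85 and 3.10 (at least 46.0-fold), Cdh5, the endothelial cadherin, at 7.50, 6.24 and 4.58 against 2.85 throughout (at least 2.65-fold), and Eng at 8.70, 8.95 and 8.22 against 3.55, 6.02 and 2.98. Other defining members were near background: Flt1, Ets1 and Icam2 were above it on 0 of 6 arrays, and Pecam1 (0.92, adjusted p = 0.122) and Kdr (1.06, adjusted p = 0.112) did not pass. The lower member was Sox18, whose second probe set was not called and pointed the other way (-2.06 and 0.15).

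Of 22 stromal genes 10 were higher and 1 lower (median 0.76, or 0.42 with bounds), with a summed intensity of 2220 to 3617 against 1167 to 1738. The chemokine Cxcl12 was at 7.37, 9.59 and 8.56 against 2.85 throughout (at least 14-fold) and Foxd1 at 4.67, 7.98 and 6.92 against 3.78, 3.95 and 4.26, again highest in replicate 3. Col1a1 and Col3a1 were higher by 1.27 and at least 1.55-fold, whereas Postn, periostin, was lower (-2.90, adjusted p = 1.70e-05). Pdgfra was called in both directions by its probe sets (at least 1.40-fold higher, and -1.70). Among 11 red blood cell genes 2 were higher, Hbb-b2 (8.59, 7.39 and 5.81 against 2.85, 2.85 and 3.27) and Hbb-bh1, and 1 was lower, Alas2. These counts stand against 13.1% higher and 12.3% lower over all genes, and the list median was 0.13. Hbb-bh1 (at least 1.27-fold) lost its call in 3 of 6 fits without 1 array, and Alas2 was lower by at least 1.33-fold. The summed intensity of the red blood cell genes was 342 to 1415 in renal vesicles and 330 to 344 in collecting duct. Of 7 macrophage and leukocyte genes 3 were lower and 0 higher, with sums of 235 to 356 against 495 to 663, and these were Laptm5 (-2.63), C1qb (-1.54) and Cd14 (-1.42). Of 7 neuronal and glial genes 0 passed in limma, with 0 at an unadjusted p under 0.05, and their sums were 399 to 496 against 524 to 598.

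Among nephron segments that form later, podocyte genes were mostly higher in renal vesicles, whereas tubule genes went both ways. Of 11 podocyte genes 7 were higher and 1 lower (median 1.62, or 1.40 with bounds), with a summed intensity of 2208, 6329 and 3017 in vesicle replicates 2, 3 and 4 against 795 to 969. Ptpro, a podocyte membrane phosphatase, was at 6.79, 10.95 and 8.94 against 4.22, 2.85 and 3.97 (at least 18.3-fold), and Cd2ap, a slit diaphragm adaptor, was lower (-1.51). Of 10 proximal tubule genes 3 were higher and 2 lower, with sums of 349, 743 and 354 in replicates 2, 3 and 4 against 308 to 354. Of 7 distal tubule and loop of Henle genes, whose sums overlapped, 2 were higher, Irx3 (2.78) and Sim1 (2.60), and 2 lower, Wfdc2 (-2.19) and Mal (-3.63). The part of other cell types in the differences above was not tested.

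Pooled S-shaped bodies, fitted with the same renal vesicle arrays, were set beside the same genes. Signs of RNA quality differed between these groups: the ratio of the 3′ to the 5′ GAPDH control was 21.2 to 28.3 in S-shaped bodies and 8.23 to 14.53 in renal vesicles, and that of the 3′ to the middle actin control 3.22 to 3.92 against 7.89 to 9.02. Their part in the differences between the nephron stages was not tested. In collecting duct the ratios were 8.97 to 11.97 and 6.29 to 10.45, overlapping those of the vesicles. Among vesicle genes, Dll1 was at least 6.44-fold lower in S-shaped bodies than in renal vesicles (limma adjusted p = 2.12e-06), Ccnd1 averaged 7.56 there (-2.75) and Lhx1 5.53 (-1.66). Among collecting duct genes, Krt7 averaged 9.10 in S-shaped bodies, 4.24 ± 0.86 (SE, log2) above renal vesicles (adjusted p = 2.80e-03), Gata3 averaged 7.83 (2.51 ± 0.35 SE, adjusted p = 2.67e-04) and Nr4a1 8.41 (2.96). Krt19, Cldn4, Oit1 and Lgals3, by contrast, averaged 2.85 in S-shaped bodies, so that these 4 were detected in the collecting duct and in neither nephron stage.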

How the data were processed

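Levels were measured on 12 Affymetrix MG_U74Av2 arrays, 3 in each of 4 groups, which the titles give as renal vesicle, collecting duct, pooled S-shaped body and single S-shaped body. The deposited values are intensities on a linear scale, 1 per probe set, with values below 0 after background subtraction. GCOS is named in the submitters' processing notes, while the summary method and target scale were not given in the sources used here. The arrays were quantile normalized together without the 66 AFFX controls, values below 0 became 0, and log2 was computed after adding 7.22 as pseudocount, which is 25% of the median value. The filter dropped probe sets whose mean lay below the 25th percentile. Differences were tested with limma 3.58.1 (R 4.3.3; lmFit and eBayes with trend) over 9 arrays, without the single S-shaped bodies, with 6 residual degrees of freedom, two-sided, with Benjamini-Hochberg adjustment over all 9316 probe sets and calls at an adjusted p under 0.05.

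A gene was read from the probe set of highest mean among those with 1 gene symbol. Symbols came from GEO's platform annotation, in which 10833 probe sets had 1 symbol, 396 several and 1193 none. Background on each array was exceeded where a probe set passed the size of the 5th percentile of that array's deposited values, taken with its sign turned, and where a group was above it on 0 of 3 arrays the fold is given as a bound, of the brighter group's mean over the higher of the background level and the value of the dim group. Errors are standard errors of the fit, and the number of arrays limits the precision. Genes named are the 15 with the largest called difference in each direction with arrays that do not overlap and a level above the median, up to 3 per list and direction, and the 4 markers, and further genes were named after their values were seen. Members and gene lists were chosen with earlier results of these data known. Simulated data for this comparison shifted 67, 67 and 66 of 9316 probe sets by 1, 2 and 3 on the log2 scale. The fit recovered 32.8%, 71.6% and 95.5% of them, with 8 false calls among 141. Far fewer probe sets were shifted than the 23.7% called in the data, so these rates need not hold there. Alternatives changed the pseudocount, scaling, filter, variance model, arrays in the fit, replicates, threshold and the choice of probe set. No 2 arrays held identical values.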

Additional observations from a re-analysis of the deposited data

How the results depend on the processing

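Scaling decided the balance of calls. On the deposited scale 224 probe sets and 174 genes were called higher and 7061 and 5243 lower in renal vesicles. Of 1700 called genes tested on it 536 had the opposite sign, 281 of them called. Of the named genes called higher, these turned negative: Cdc20 (-0.40), Cenpa (-0.17), Ttk (-0.51), Col1a1 (-0.24), Fgfr1 (-0.23), Notch2 (-0.0283), Pdia6 (-0.28), Ptch1 (-0.36), Sgk1 (-0.32), Smo (-0.71), Wnt4 (-0.0152) and Ctse (-0.88), as did those of Ets1 (-0.87), Flt1 (-0.0310) and Pecam1 (-0.0319), which were not called. With arrays scaled to their 75th percentile 59.8% of the called genes were higher and the median of all genes was 0.04. Averaging a gene's probe sets turned Ctse (-1.96), Mcm5 (0.68) and Ets1 (-0.48). Requiring at least 2-fold left 656 probe sets higher and 656 lower, and 499 and 508 genes. Leaving out 1 array gave 865 to 1156 probe sets higher and 759 to 1099 lower, and 684 to 895 genes higher and 603 to 862 lower. Of the named genes 15 lost their call without at least 1 array: Ccne1, Cdkn1a, Cdkn1b, Ctse, Egfr, Foxd1, Foxj1, Hbb-bh1, Id3, Itgb7, Krt20, Laptm5, Mcm5, Ube2c and Wnt1. Under the other pseudocounts, filters, variance models and sets of arrays, the counts of probe sets and genes stayed within 1.5 times those reported.

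The groups share only the replicate numbers 2 and 3, and the arrays' deviations from their group means correlated at -0.02 and 0.04 for these numbers, so they were not taken to pair the samples. With the replicate number as a block 721 probe sets and 576 genes were called higher and 654 and 536 lower.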

Other observations

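Members of further gene groups differed between renal vesicles and collecting duct. The shares over all genes were 13.1% higher and 12.3% lower. The ephrin and imprinted lists below had medians of -0.15 and -0.10, against -0.02 for all genes. Id1, Id2 and Id3, inhibitors of helix-loop-helix factors, were lower in renal vesicles: Id2 was at 10.02, 9.99 and 9.81 in vesicle replicates 2, 3 and 4 and at 11.65, 11.46 and 11.43 in collecting duct (log2 difference -1.58 ± 0.12 SE, adjusted p = 3.39e-06), Id1 differed by -1.10 and Id3 by -0.67. The Id3 call was lost in 4 of 6 fits without 1 array (limma adjusted p up to 0.0829). Of 15 ephrins and Eph receptors 4 were higher and 2 lower, with the receptor Epha7 (at least 3.17-fold) and the ligand Efnb1 (at least 2.64-fold) on the vesicle side and Ephb3 (-1.92) and Efna1 (at least 1.45-fold) on the duct side. Of 18 imprinted genes 3 were higher and 4 lower: Mest, a hydrolase-like gene expressed from the paternal allele, was at 9.66, 9.95 and 9.48 against 6.68, 6.41 and 6.29 (3.24 ± 0.16 SE, adjusted p = 2.63e-07), whereas Peg3, also paternally expressed, was at 11.94, 11.57 and 11.78 in collecting duct and 10.44, 10.90 and 10.46 in renal vesicles (-1.16 ± 0.15 SE). Of 11 p53 target genes 5 were lower and 1 higher, Sesn1 (1.62).

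Probe sets of 1 gene did not always give 1 answer. Among 1305 genes with several tested probe sets 509 had at least 1 called, 98 had all called in 1 direction and 8 had probe sets called in both directions. Ctse, cathepsin E, read from its brightest probe set, was higher in renal vesicles by 0.66 (adjusted p = 0.0487), whereas another was lower by -6.72 (adjusted p = 1.62e-07), the size of the keratin differences. Mtm1, myotubularin, had a difference of 3.47 (adjusted p = 4.86e-06) on its brightest probe set and -0.78 (adjusted p = 0.0408) on another. Which probe set reads the transcript of these genes was not tested.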
